A study of Homo sapiens with 4 samples.

Results

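The end of the long arm of human chromosome 8, band 8q24.3, carried fewer chromatin contacts in SH-SY5Y cells depleted of TDP-43 than in control cells. The segment described here runs over chr8:140100001-145100000 (hg38), the last 5 Mb of the listed bins of the chromosome. It takes every deposited pair of 50 kb bins with both bin middles on chromosome 8 above 140.1 Mb. There are 428 such pairs among 89239 in the whole table. They comprise the contacts within 90 single bins and 338 pairs of different bins. The segment was singled out because earlier work on the same 4 libraries had shown lower contacts there, so its fold changes and calls are given as a description and support nothing.

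Micro-C cuts chromatin with micrococcal nuclease, joins fragments that lie close together in the nucleus, and counts each joined pair as a contact. Contacts fall off steeply with distance along the chromosome, and stretches with many internal contacts form domains whose far ends may meet in loops. The band 8q24.3 is a gene-dense chromosome end in which neuronal genes, the Ly6 family of small surface and secreted proteins and a tight run of housekeeping genes lie side by side. TDP-43, encoded by TARDBP, is a nuclear protein that binds RNA and DNA and takes part in splicing, and its loss from the nucleus is a hallmark of amyotrophic lateral sclerosis.

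SH-SY5Y is an established human neuroblastoma line. The TDP43KD group had 2 libraries of cells carrying a lentiviral shRNA against TDP-43 (shTDP-43). The control group had 2 libraries, and the protocol names a control shRNA, shNC, in the same vector. Per the protocol, stable knockdown cells were kept for 2 weeks in puromycin at 2 µg/mL and then at 1 µg/mL. The sample records give the same puromycin treatment for the control libraries. Each replicate was made from a fixed number of cells. Whether the lines were clones or pools, and whether the libraries came from separate cultures, is not given in the labels, so the spread between libraries may be technical. A contact table holds no transcript levels, so neither neuroblastoma markers nor the depletion of TDP-43 could be checked.

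The listed contacts numbered 115168160 and 142424414 in the TDP43KD libraries and 158400914 and 163147992 in the control libraries. Of these, the segment held 810947 and 1024412 in TDP43KD and 1355530 and 1479859 in control. Levels are given in CPM, contacts scaled to the size of each library with edgeR's TMM factors, and fold changes are TDP43KD over control on the log2 scale. Within each group 1 library tended to lie below the other. TDP43KD 1 lay below TDP43KD 2 in 65 of the 90 bins, with a median absolute difference of 0.06 (log2), and control 1 below control 2 in 74, with one of 0.11 (log2). The counts were not corrected for copy number, so fewer contacts per copy of the segment and fewer copies of it cannot be told apart.

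The segment took 0.704% and 0.719% of all listed contacts in the TDP43KD libraries, against 0.856% and 0.907% in the control libraries. The groups did not overlap, and the ratio of their means was 0.807. Of the contacts of chromosome 8 alone, the segment took 18.9% and 19.3% in TDP43KD and 22.96% and 24.4% in control. With 2 libraries against 2, an exact permutation test cannot go below p = 0.333, and none was run on a segment chosen from the same contrast.

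By edgeR's quasi-likelihood test over the whole table (Benjamini-Hochberg adjusted p under 0.05), 189 of the 428 pairs were lower in TDP43KD and 3 were higher. Over all pairs, 10.5 percent were lower and 5.76 percent higher, and since the segment was picked from this contrast nothing is read from the gap. The count rests on both knockdown libraries: 98 pairs were lower without TDP43KD replicate 1 and 122 without TDP43KD replicate 2. In 310 pairs both TDP43KD libraries lay below both control libraries, an arrangement found in 26.3 percent of all pairs. The median change was -0.35 (log2) in the segment and 0.02 over all pairs. Much of the table changed with abundance, abundant pairs being lower in TDP43KD across the genome, so the main counts are also given with that trend removed by a loess fit. Then 200 pairs of the segment were lower and 1 was higher, with a median of -0.32 (log2), beside 5.93 percent lower and 4.97 percent higher over all pairs.

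The inner edge of the segment, at 140.1 Mb, did not mark the onset of the decrease. The 3 bins just outside the edge had changes of -0.31, -0.06 and -0.23 (log2), and the 3 just inside had -0.04, 0.07 and -0.25 (log2). The values inside overlap those outside. The 11 listed pairs that join a bin inside with a bin outside held no call in either direction. In the 5 Mb next to the segment, 20 of 170 pairs were lower and 11 higher, with a median change of -0.00 (log2), and 11 were lower with the trend removed. In the rest of chromosome 8, 192 of 3527 pairs were lower and 216 higher, with a median of 0.07 (log2), and 104 were lower with the trend removed.

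Contacts within a bin made up 79.1% and 79.4% of the segment's contacts in TDP43KD and 80.9% and 81.2% in control. In the control libraries these levels spanned 2.78 to 188 CPM across the 90 bins, and 61 of the 90 exceeded 49.1 CPM, the level that marks the top 10% of bins genome-wide. Within a bin, 72 of the 90 levels were lower in TDP43KD and 2 were higher, with a median change of -0.44 (log2), beside 14.3 percent lower among all bins. The TDP43KD libraries both lay below the control libraries in 78 bins and above them in 4, and the groups overlapped in 8. Among all bins they lay below in 28.5% and above in 31.4%. With the abundance trend removed, 55 bins remained lower and 1 higher, beside 5.09 percent lower among all bins, and the median was -0.13 (log2).

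**Figure D1:**
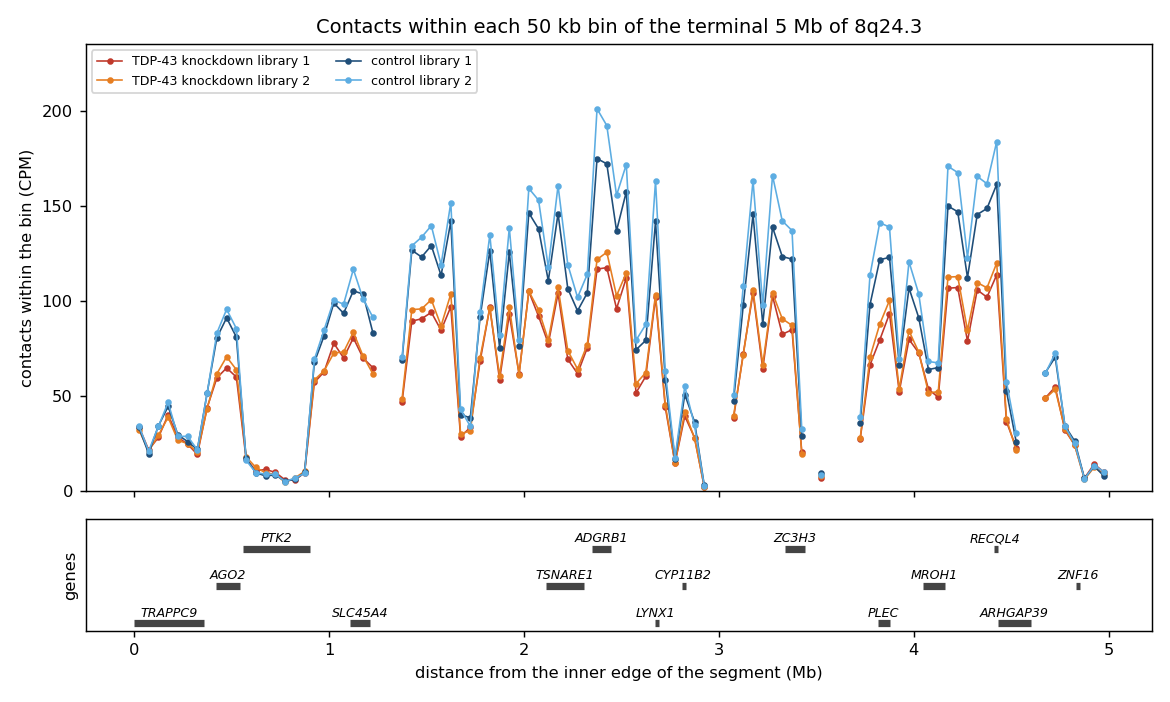
Contacts within each 50 kb bin in CPM (vertical axis) by distance from the inner edge of the segment in Mb (horizontal axis), with 1 line for each of the 2 TDP43KD and 2 control libraries and selected genes drawn below; gaps are bins that are not listed. The TDP43KD lines run below the control lines at every peak, including the highest at ADGRB1, and meet them over PTK2 and at the outer end.

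The levels traced alternating high and low stretches that followed genes only in part. The counts of lower bins by window stand beside 14.3 percent lower among all bins. Genome-wide, 97.1% of bins with a mean level of 75 to 125 CPM and 99.5% of those above were lower. In 500 kb windows from the inner edge outwards, the first, with TRAPPC9, CHRAC1 and the start of AGO2, had 5 of 10 bins lower and a median of -0.17 (log2). The second, mostly PTK2, had 3 of 10 lower and 2 higher, with a median of 0.04 (log2). All 8 listed bins of the third window, with DENND3 and SLC45A4, were lower, with a median of -0.46 (log2). With the abundance trend removed, 2, 2 and 5 bins of these windows were lower, with medians of -0.05, 0.03 and -0.10 (log2).

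All 10 bins of the fourth window, which holds no annotated protein-coding gene, were lower (median -0.44, log2). So were all 10 of the fifth, with TSNARE1 and ADGRB1 (median -0.57, log2). In the sixth, with ARC, the Ly6 genes and the CYP11B pair, 8 of 9 bins were lower (median -0.44, log2). With the trend removed, 5, 10 and 7 bins of these windows were lower, with medians of -0.09, -0.19 and -0.20 (log2), so 5 bins of the gene-free window lost their call.

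The seventh window, running to ZC3H3 and EEF1D, had 8 of 8 listed bins lower (median -0.56, log2). The eighth, around PLEC, had 7 of 7 lower (median -0.44, log2), and the ninth, with 32 genes between SHARPIN and ARHGAP39, had 10 of 10 lower (median -0.53, log2). The last window, with the outermost zinc finger genes, had 3 of 8 lower and a median of -0.08 (log2). With the trend removed, 8, 5, 8 and 3 bins of these 4 windows were lower, with medians of -0.20, -0.29, -0.13 and -0.04 (log2). In the 5 outermost bins, chr8:144850001-145100000, the first of which still overlaps COMMD5, none was lower and the median was -0.03 (log2).

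**Figure D2:**
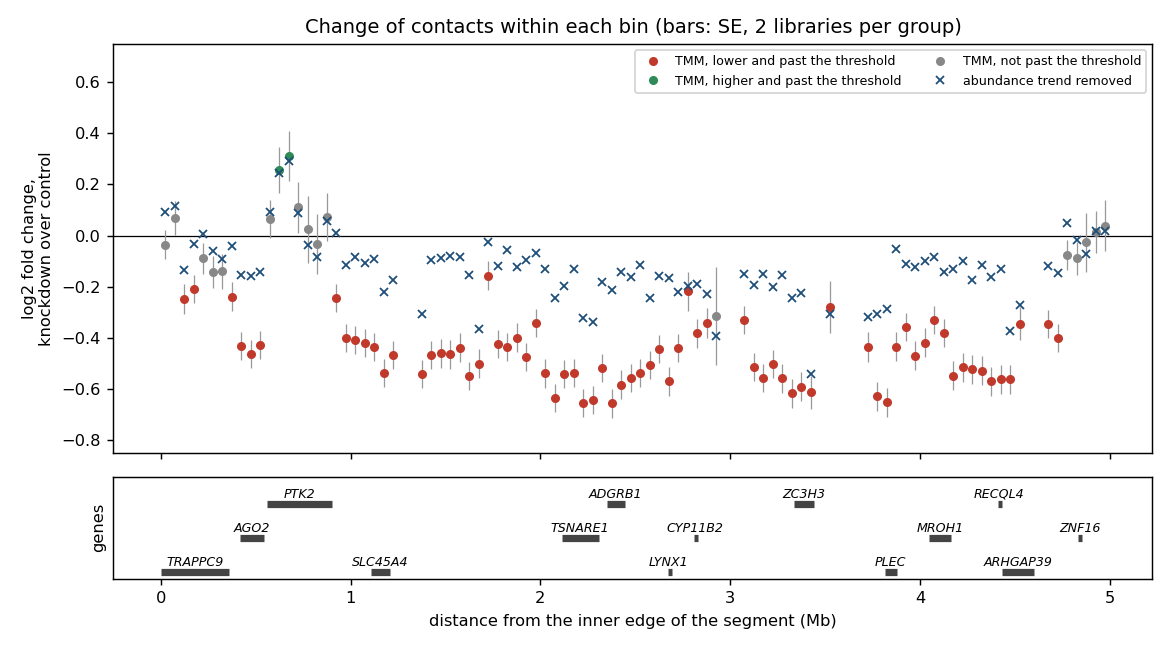
Change of contacts within each bin, TDP43KD over control, in log2 (vertical axis), by distance from the inner edge in Mb (horizontal axis); circles with SE bars are TMM-scaled values of 2 libraries per group and crosses have the abundance trend removed. Of the 90 circles, 72 are lower and past the threshold; those over PTK2 and at the outer end lie near 0, and most crosses lie nearer to 0, with a median of -0.13.

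ADGRB1 encodes an adhesion receptor of the brain that also restrains blood vessel growth, and its bins held the highest level of the segment. The bin chr8:142450001-142500000 had 117 and 122 CPM in TDP43KD, against 175 and 200.9 CPM in control. The TDP43KD libraries stood well below both control libraries, and the change was -0.66 ± 0.06 (log2, SE, n = 2 per group). The next bin outwards, also in ADGRB1, had 117 and 126 CPM in TDP43KD and 172 and 192 CPM in control, a change of -0.58 ± 0.06 (log2, SE). With the abundance trend removed the changes of the pair were -0.21 and -0.14 (log2).

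The third highest bin in control, chr8:144500001-144550000, holds 8 genes, among them RECQL4, a DNA helicase, and GPT, an alanine aminotransferase. It had 114 and 119.8 CPM in TDP43KD, against 161 and 184 CPM in control, a change of -0.56 ± 0.06 (log2, SE). Here too the groups did not overlap.

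The lowest bin, chr8:143000001-143050000, overlaps LY6E and LY6S of the Ly6 family. It had 2.16 and 2.31 CPM in TDP43KD and 2.97 and 2.59 CPM in control, and it did not pass the test (log2 change -0.32 ± 0.19, SE). The next lowest, chr8:140850001-140900000 in PTK2, had 5.86 and 4.59 CPM in TDP43KD and 5.23 and 5.02 CPM in control. Its groups overlapped, as did those of the neighbouring PTK2 bin chr8:140900001-140950000, with 5.76 and 6.87 CPM in TDP43KD and 6.11 and 6.83 CPM in control.

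PTK2, which encodes focal adhesion kinase, covered a stretch where most levels did not fall, as in the 5 outermost bins. Its 8 bins with no other gene included 1 lower and 2 higher, and in the 7 innermost of these the control level was 5.12 to 16.7 CPM and none was lower. The bin chr8:140750001-140800000 had 11.4 and 9.59 CPM in TDP43KD, against 7.96 and 8.88 CPM in control, a change of 0.31 ± 0.10 (log2, SE). The bin chr8:140700001-140750000 had 10.6 and 12.4 CPM in TDP43KD and 9.60 and 9.73 CPM in control, a change of 0.26 ± 0.09 (log2, SE). In both bins the TDP43KD libraries lay above the control libraries, as the rule for naming them required, by a margin no larger than the gap between the TDP43KD libraries themselves. The call of the first bin was lost in 3 of 10 other settings, among them DESeq2 and the fit without TDP43KD replicate 1, where its change was 0.19 (log2). That of the second was lost in 6 of 10, among them DESeq2 and the removal of the abundance trend.

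The third increase was a pair of neighbouring bins inside TRAPPC9, which encodes a subunit of a vesicle tethering complex. The contacts between chr8:140150001-140200000 and chr8:140200001-140250000 came to 4.47 and 4.33 CPM in TDP43KD and 3.22 and 3.41 CPM in control, a change of 0.41 ± 0.15 (log2, SE). The rule for named pairs required groups that do not overlap, and its call was lost in 7 of 10 other settings, the removal of the abundance trend among them. Within the TRAPPC9 bins themselves, 3 of 8 were lower, and none was with the trend removed.

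Outwards of TRAPPC9, all 3 bins of CHRAC1, a histone-fold subunit of a chromatin remodelling complex, and AGO2, the Argonaute protein that cuts RNA, were lower, with a median of -0.43 (log2). The sum of their levels was 184 and 196 CPM in TDP43KD, against 253 and 264 CPM in control. The 5 bins of DENND3 and SLC45A4 were all lower as well, with a median of -0.44 (log2), and 3 were with the trend removed. In the 11 bins between MROH1 and ARHGAP39 the sum was 848 and 882 CPM in TDP43KD and 1162 and 1298 CPM in control. All 11 were lower, with a median of -0.52 (log2), and 9 were with the trend removed. Genome-wide, too, nearly all bins of 75 CPM or more were lower, as given next.

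How far a bin fell went with its level, both in the segment and elsewhere. Of the bins with a mean level of the 2 groups under 25 CPM, 2 of 16 were lower in the segment (median 0.02, log2), against a median of 0.08 and 3.22% lower over all such bins. Between 25 and 75 CPM, 27 of 31 were lower (median -0.36, log2), against a median of -0.15 for all bins of that class, of which 48.7% were lower. Between 75 and 125 CPM, 30 of 30 were lower (median -0.49, log2), against -0.36 and 97.1% lower for all. From 125 CPM upwards, 13 of 13 were lower (median -0.56, log2), against -0.46 and 99.5% lower for all. A bin of high level was thus nearly always called lower, wherever it lay in the genome.

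Above 25 CPM the segment's median lay below that of its class in each class. With the trend removed, the medians of the segment were -0.14, -0.16 and -0.13 (log2) in the 3 upper classes, against 0.02, -0.02 and -0.02 for all bins. Across the 90 bins, the control level (log2) and the change had a Pearson r of -0.83, and -0.30 with the trend removed. Both values share the control counts, so this is a description only.

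The number of genes in a bin followed the change weakly (r = -0.18 across the 90 bins, and -0.06 with the trend removed). All 11 bins with 4 or more protein-coding genes were lower, with a median of -0.52 (log2). Their median control level was 152 CPM, a level at which nearly all bins genome-wide were lower. Of 17 bins with 2 or 3 genes, 14 were lower (median -0.44, log2), and of 44 with 1 gene, 30 were lower and 2 higher (median -0.36, log2). Of 18 bins with no protein-coding gene, 17 were lower, with a median of -0.45 (log2). With the trend removed, 10, 12, 22 and 11 bins of these 4 classes were lower, with medians of -0.13, -0.15, -0.12 and -0.12 (log2).

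Most of the distant pairs of the segment lay in a domain that ends in ADGRB1, delimited after its values were seen. It spans 22 bins, chr8:141450001-142550000, of which 14 hold no protein-coding gene. All 22 bins were lower within the bin, with a median of -0.51 (log2), and 16 remained lower with the abundance trend removed. Their median control level was 122 CPM. Genome-wide, 97.1% of bins of 75 to 125 CPM and 99.5% of those above were lower, so the count of 22 is near that of other bins of high level. The 14 gene-free bins were all lower, and 8 remained so. Within this domain, 65 of 163 pairs of different bins were lower and none was higher, with a median of -0.38 (log2), and 77 were lower with the trend removed. Of the 175 other pairs of different bins in the segment, 52 were lower and 1 was higher, with a median of -0.28 (log2). With the trend removed, 68 of these were lower. The 2 sets differ in distance, since 107 pairs of the domain but only 46 of the others lay 200 kb or more apart. Of these distant pairs, 39 of 107 and 12 of 46 were lower, with close medians of -0.43 and -0.40 (log2). With the trend removed, 48 and 19 were lower, with medians of -0.52 and -0.49 (log2).

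**Figure D3:**
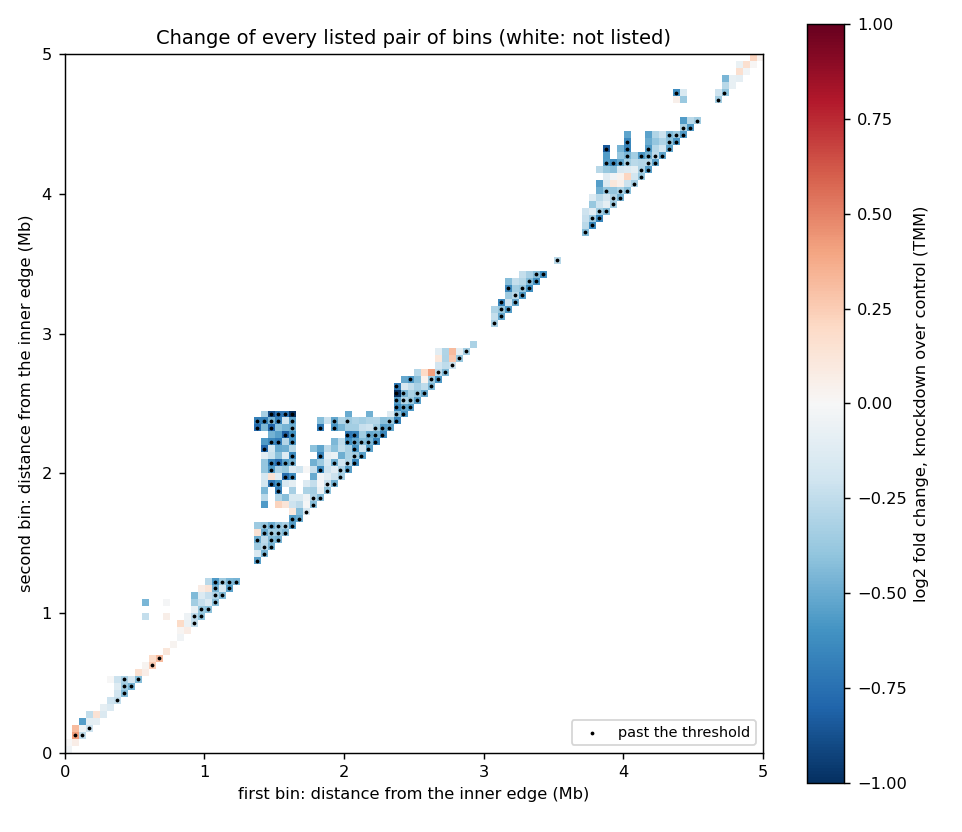
Change of each listed pair of bins, TDP43KD over control, as colour (log2), by the distance of its first bin (horizontal axis) and second bin (vertical axis) from the inner edge in Mb; dots mark pairs past the threshold and white marks pairs that are not listed. The block between about 1.35 and 2.45 Mb is the domain that ends in ADGRB1, where 24 of 49 pairs at 500 kb or more were lower.

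Among pairs of different bins, the median change grew with distance, in the segment and over all pairs. At 50 to 150 kb, 66 of 185 pairs were lower and 1 was higher, with a median of -0.28 (log2), beside 5.26 percent lower and a median of 0.06 (log2) for all pairs of that distance. At 200 to 450 kb, 27 of 103 were lower (median -0.37, log2), beside 7.4 percent and -0.11 (log2). At 500 kb or more, 24 of 50 were lower (median -0.50, log2), beside 12.4 percent and -0.19 (log2). With the abundance trend removed the numbers lower were 78, 36 and 31 in the 3 classes, beside 5.74%, 10.6% and 17.5% over all pairs. In another setting TMM scaling was done apart within a bin, up to 150 kb and beyond, so both farther classes were scaled together. The numbers lower were then 89, 10 and 15. The medians were -0.32, -0.25 and -0.38 (log2), so the order by distance was no longer steady. These counts lean on each knockdown library: without TDP43KD replicate 1 they were 24, 3 and 6, and without TDP43KD replicate 2 to 36, 9 and 11. At 200 to 450 kb the count was also 17 without control replicate 2.

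Among the listed pairs, the segment was rich in those at 500 kb or more, a property the rule did not use. The list is the same for all 4 libraries and rests on mean abundance. This count is therefore not one per library, and a pair could enter it mainly through its control level. The segment held 50 of the 905 listed pairs at 500 kb or more in the genome, or 5.52%, against 0.184% of the listed bins. It also held 338 of the 40241 listed pairs of different bins and 1.76% of those at 200 kb or more. Of all bins with a mean level from 125 CPM upwards, it held 3.38%. How far the high level of its bins goes with the number of distant pairs listed was not tested. The domain, whose limits were drawn from such pairs of ADGRB1, held 49 of those 50, and all of chromosome 8 held 62. Their summed level in the domain was 102 and 108 CPM in TDP43KD and 145 and 153 CPM in control. The groups did not overlap in 39 of the 49, with TDP43KD lower in all 39. Over all listed pairs at 500 kb or more, both TDP43KD libraries lay below both control libraries in 45.2% and above them in 11.2%.

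The strongest of these contacts, by control level, joined the inner side of the domain, gene-free but for C8orf90, to ADGRB1. Some weaker ones ended in TSNARE1 or in a gene-free bin. Between chr8:141700001-141750000 and chr8:142450001-142500000, 750 kb apart, there were 5.01 and 6.83 CPM in TDP43KD, against 8.35 and 8.77 CPM in control. The change was -0.53 ± 0.11 (log2, SE), and the pair was in rank 11 of 905 in TDP43KD and in rank 6 in control. Both TDP43KD libraries lay below both control libraries, although TDP43KD 2 came close to control 1.

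The same ADGRB1 bin met chr8:141500001-141550000, which overlaps C8orf90, 950 kb away, with 4.58 and 5.36 CPM in TDP43KD and 8.50 and 7.45 CPM in control. The change was -0.68 ± 0.12 (log2, SE), and its rank was 28 in TDP43KD and 8 in control. It met chr8:141600001-141650000, 850 kb away, with 4.08 and 4.002 CPM in TDP43KD and 6.10 and 6.86 CPM in control, a change of -0.68 ± 0.13 (log2, SE). In these contacts the groups were clearly apart.

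**Figure D4:**
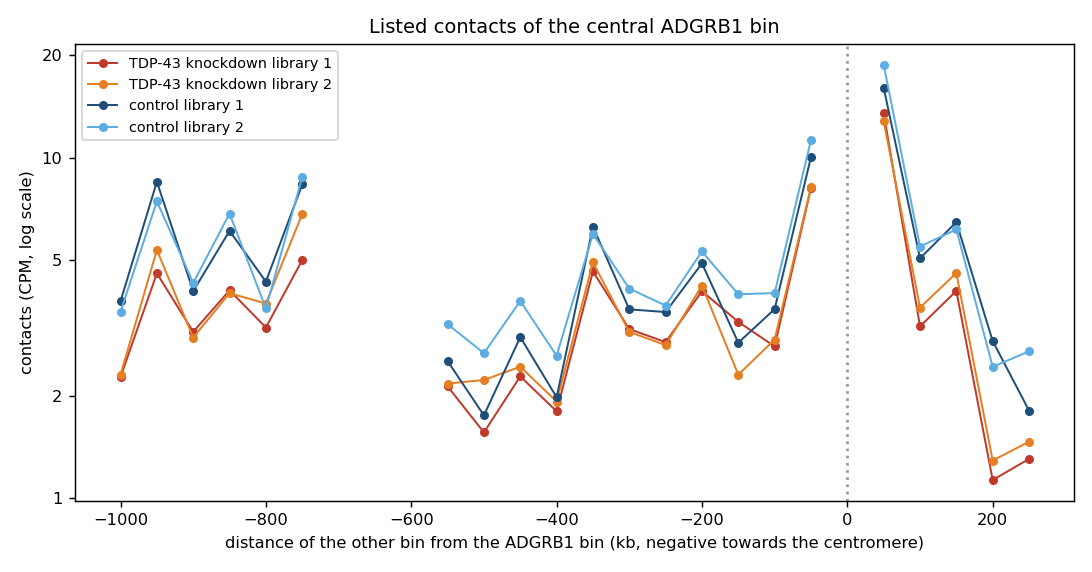
Contacts of the central ADGRB1 bin with each other bin it is listed with, in CPM on a log axis (vertical), by distance in kb, negative towards the centromere (horizontal), with 1 line for each of the 2 TDP43KD and 2 control libraries. The TDP43KD lines lie below the control lines at most distances, and contacts at -950, -850 and -750 kb stand above their neighbours in all 4 libraries.

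Over all 22 listed partners of this ADGRB1 bin, the summed level was 82.1 and 86.2 CPM in TDP43KD and 111 and 121 CPM in control. Of these partners, 13 were lower and none was higher. Among all pairs of different bins, 117 of 338 in the segment and 5.83% genome-wide were lower. This ADGRB1 bin was named for its high control level, so nothing is read from the gap. The sum of its 8 contacts at 500 kb or more was 25.9 and 29.6 CPM in TDP43KD, against 39.4 and 40.4 CPM in control, or 69.5% of the control mean. The sum of its 9 inner contacts at 50 to 450 kb was 33.0 and 32.8 CPM in TDP43KD and 39.7 and 44.8 CPM in control, or 78.0% of it. Of 1065 bins with any listed contact at 500 kb or more, 11 had 8 or more of them, this bin included.

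On the outer side, ADGRB1 faces ARC, which encodes a cytoskeletal protein of synaptic plasticity, and then JRK and PSCA. All 5 of its contacts on that side were lower, with a sum of 23.2 and 23.8 CPM in TDP43KD and 32.3 and 35.5 CPM in control. The outermost bin of ADGRB1 had 5 contacts at 500 kb or more, which summed to 6.72 and 6.61 CPM in TDP43KD, against 11.2 and 11.5 CPM in control. Of these 5, 4 were lower, beside 24 of all 50 such pairs in the segment.

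The largest decrease in the segment was between gene-free chr8:141700001-141750000 and the outermost ADGRB1 bin, chr8:142500001-142550000, 800 kb apart. It had 116 and 184 contacts in TDP43KD, against 393 and 413 in control. In CPM the TDP43KD mean was 41.8% of the control mean, and the change was -1.25 ± 0.22 (log2, SE). The next was between chr8:142450001-142500000 in ADGRB1 and chr8:142650001-142700000, 200 kb away, which overlaps JRK, a DNA-binding protein gene, and PSCA of the Ly6 family. It had 137 and 192 contacts in TDP43KD and 443 and 375 in control, a change of -1.13 ± 0.22 (log2, SE). Both pairs were named for their size and for groups that do not overlap, so their separation is a description. Their calls held under all 10 other settings.

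Of the other 8 largest decreases, 7 lay inside the domain and joined its inner side to TSNARE1, a gene of a SNARE-like protein of vesicle fusion, to ADGRB1 or to gene-free bins. They spanned 400 to 950 kb, with changes of -0.76 to -0.89 (log2). The domain held 107 of the segment's 153 pairs at 200 kb or more, so many of the largest decreases would fall in it by number alone. These 7 decreases had low control means of 2.04 to 3.00 CPM and SEs of 0.20 to 0.23, so only large changes passed the threshold. The largest of them, chr8:141550001-141600000 with the outermost ADGRB1 bin, had 116 and 190 contacts in TDP43KD and 346 and 294 in control, a change of -0.89 ± 0.23 (log2, SE). The pair chr8:141650001-141700000 with chr8:142350001-142400000 in TSNARE1 had 127 and 227 contacts in TDP43KD and 349 and 356 in control, a change of -0.83 ± 0.22 (log2, SE). TDP43KD replicate 1 was the lower library in both, and without it both calls were lost.

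The tenth of the decreases was in the gene-dense outer part. It joined chr8:143950001-144000000, with PLEC, PARP10 and GRINA, to chr8:144400001-144450000, with CPSF1, SLC39A4, VPS28 and TONSL, 450 kb away. It had 158 and 204 contacts in TDP43KD, against 344 and 394 in control, a change of -0.84 ± 0.22 (log2, SE). The call was lost without TDP43KD replicate 1.

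By gene, 93 of the 105 protein-coding genes annotated in the segment overlapped a listed pair, and 87 of these overlapped a lower pair. Genome-wide, 45.7% of genes with a listed pair did. TRAPPC9 and PTK2 also overlapped a higher pair, and LY6E, LY6S, ZNF250, LOC124902042, ZNF16 and C8orf33 overlapped no called pair. The other 12 genes lie wholly in the 10 bins that the table does not list, among them GSDMD, EEF1D, PTP4A3 and MAPK15, and are not analysed here. Genes are given below by the bin that holds their lower coordinate. Several share a bin and then have the same value, so they are not separate measurements. After removal of the abundance trend, 86 of the 93 genes overlapped a lower pair, beside 25.2% of genes genome-wide. The counts of the lists below were the same except for the steroid enzymes. The list medians then lay between -0.19 and -0.13 (log2).

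Of the neuronal genes, 8 of 8 overlapped a lower pair, and the median change within their 8 bins was -0.52 (log2). It was -0.44 over the segment's bins and 0.02 over all bins. Most of the 8 bins are of high level, and all bins of 75 to 125 CPM had a median of -0.36, those above it -0.46 (log2). With the abundance trend removed, the median was -0.13 (log2) both for the neuronal genes and for the segment's bins. LYNX1 encodes an anchored protein that tunes nicotinic acetylcholine receptors. Its bin had 102 and 103 CPM in TDP43KD and 142 and 163 CPM in control, a change of -0.57 (log2). The bin of ARC had 112 and 115 CPM in TDP43KD and 157 and 172 CPM in control, a change of -0.54 (log2). The bin at the TSNARE1 coordinate had 77.5 and 79.3 CPM in TDP43KD and 111 and 118 CPM in control, a change of -0.54 (log2). The groups were apart in all of these. Those of GRINA and SLC45A4 were the 2 of the 8 not lower with the abundance trend removed.

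Of 11 genes of the Ly6 family, 9 overlapped a lower pair, and the median over the 10 with a listed bin was -0.47 (log2). LYPD2 and LY6D share the bin of LYNX1. GPIHBP1, which holds lipoprotein lipase on capillary walls, lies in a bin with 72.2 and 71.6 CPM in TDP43KD and 97.7 and 108 CPM in control, a change of -0.52 (log2). Between these groups of Ly6 genes stand the steroid enzymes CYP11B1 and CYP11B2, of which 2 of 2 overlapped a lower pair and 1 did so with the trend removed. The bin of CYP11B2, the aldosterone synthase, had 39.4 and 41.7 CPM in TDP43KD and 50.8 and 55.1 CPM in control, a change of -0.38 (log2). That of CYP11B1, which makes cortisol, changed by -0.22 (log2) and was not lower with the trend removed.

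Of 8 genes of RNA processing and translation, 7 overlapped a lower pair, and the median within their 7 listed bins was -0.47 (log2). ZC3H3, a zinc finger protein of mRNA polyadenylation and export, lies in a bin with 82.4 and 90.6 CPM in TDP43KD, against 123 and 142 CPM in control, a change of -0.62 (log2). That of BOP1, a factor of ribosome assembly, had 107 and 112 CPM in TDP43KD and 149.8 and 171 CPM in control, a change of -0.55 (log2). Those of CPSF1, a subunit of the complex that cleaves pre-mRNA before polyadenylation, and EXOSC4, of the RNA exosome, changed by -0.52 and -0.47 (log2). The bin of RPL8, a ribosomal protein gene near the outer end, changed by -0.35 (log2).

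Of 9 genes of adhesion, the cytoskeleton and polarity, 7 overlapped a lower pair, PTK2 among them, and the median over 6 listed bins was -0.57 (log2). The bin of PLEC, which encodes the cytoskeletal linker plectin, had 79.4 and 87.7 CPM in TDP43KD and 122 and 141 CPM in control, a change of -0.65 (log2). Those of EPPK1, a relative of plectin, KIFC2, a kinesin, and ARHGAP39 changed by -0.63, -0.57 and -0.56 (log2). All of these remained lower with the trend removed.

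Of 5 genes of genome maintenance and chromatin, 5 overlapped a lower pair, with a median of -0.50 (log2). Besides RECQL4, the bin of TONSL, which acts at damaged replication forks, had 106 and 109.6 CPM in TDP43KD and 145 and 165 CPM in control, a change of -0.53 (log2). That of TOP1MT, the mitochondrial topoisomerase, changed by -0.50 (log2). That of PARP10, an ADP-ribosyltransferase, changed by -0.44 (log2) and was not lower with the trend removed.

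Of 8 regulators of stress, transcription and cell fate, 6 overlapped a lower pair, with a median of -0.55 (log2) over the 6 with a listed bin. MAFA, a transcription factor of the insulin gene, shares the bin of ZC3H3, while HSF1, the heat shock factor, and SCX, the tendon factor scleraxis, share that of BOP1. The bin of FOXH1, a partner of SMAD proteins, changed by -0.57 (log2). Of 13 genes of metabolism and transport, 12 overlapped a lower pair, with a median of -0.52 (log2). SLC33A2, a membrane transporter gene, and GPT share the bin of RECQL4. The bin shared by VPS28, of the endosomal sorting machinery, and the zinc importer SLC39A4 is that of TONSL.

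Of 11 zinc finger genes, 8 overlapped a lower pair, with a median of -0.35 (log2) over the 9 with a listed bin. The bin of GLI4 and ZNF696 had 104 and 106 CPM in TDP43KD, against 145 and 163 CPM in control, a change of -0.56 (log2). ZFP41 shares the bin of GPIHBP1, and the bin of ZNF7 changed by -0.40 (log2). Farther out, the bin of ZNF250 had 32.0 and 32.8 CPM in TDP43KD and 34.3 and 34.0 CPM in control, and that of ZNF16 had 24.2 and 24.0 CPM in TDP43KD and 26.2 and 25.0 CPM in control. Neither passed the test, with changes of -0.08 and -0.09 (log2).

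Among 41 chromosome ends taken the same way, 8q was not extreme in the share of its pairs that were lower. Its 44.2% was in rank 5 after 1p (54.5%), 10q, 11p and 16q. The other 40 ends ranged between 3.03% and 54.5%, with a median of 27.1%. With the abundance trend removed, 8q was in rank 2 with 46.7%, after 1p with 56.2%. Its median within-bin level in control, 83.2 CPM, was in rank 5. It was in rank 1 by listed pairs at 500 kb or more, with 50, the next being 41 on 7p. No test was made of these ranks.

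**Figure D5:**
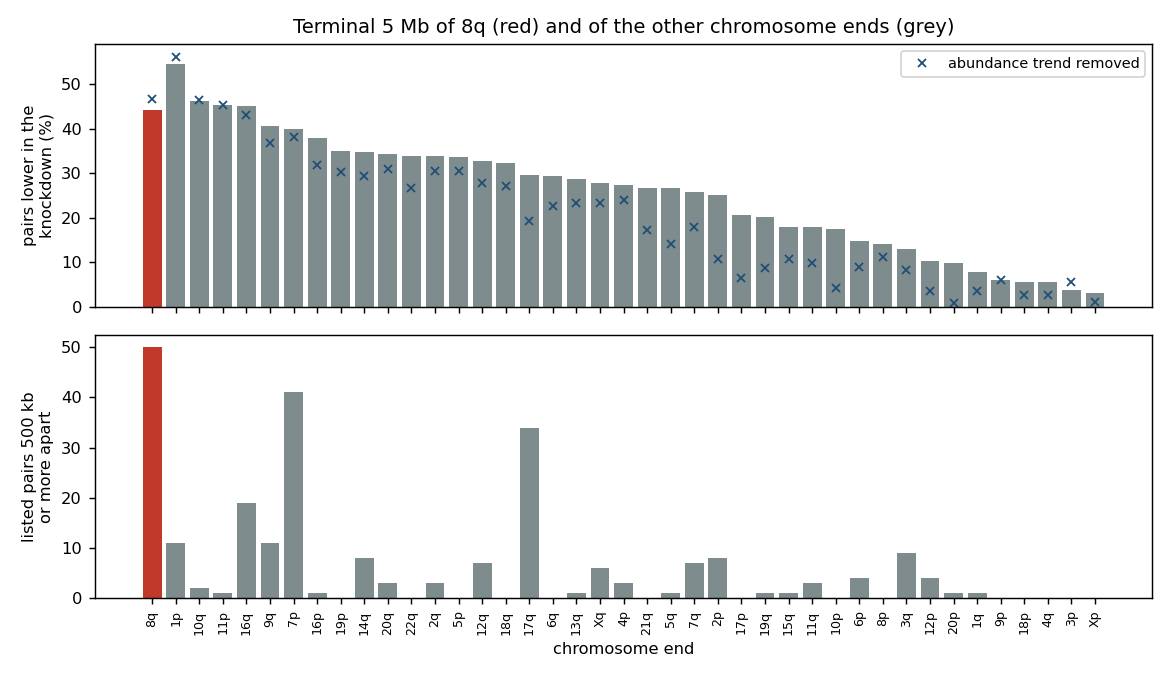
The last 5 Mb of 8q (red) beside the other 40 chromosome ends (grey): the percentage of listed pairs lower in TDP43KD (upper axis; crosses have the abundance trend removed) and the number of listed pairs at 500 kb or more (lower axis). On 8q, 44.2% of pairs were lower, exceeded at 4 ends, and its 50 long-range pairs are the most of any end.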

How the data were processed

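Micro-C contacts were analysed in 2 TDP43KD and 2 control libraries. Per the submitters' processing notes, HiC-Pro and the hg38 build were used, with versions not given in the sources used here. The authors deposited raw contact counts for pairs of 50 kb bins. Per the file headers, the table also holds the authors' fold change and mean abundance on the log2 scale, an F score, a p-value and its adjusted p-value. It begins at a mean abundance of -0.01 (log2), so weaker pairs are not analysed here and library totals are those of listed pairs.

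In R 4.3.3, edgeR 4.0.16 (with limma 3.58.1) was fitted to the counts of all 89239 pairs with TMM scaling, glmQLFit and glmQLFTest, and adjusted by Benjamini-Hochberg at 0.05. The fit was also run on simulated data. These held a single dispersion and no abundance trend, so the run cannot show how the calls behave under that trend. The filter removed 0 pairs, the smallest total of a pair being 868 counts. Figures were drawn with matplotlib 3.10.9 from tables made with pandas 2.3.3 and numpy 2.4.6 under Python 3.11.15. The abundance trend was removed by a loess fit per library with a span of 0.3. Alternatives were DESeq2 1.42.0, TMM within distance classes, no filter, a threshold of 0.01, a replicate block, each library left out, the authors' table, and shorter extents of the segment.

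Genes are protein-coding genes of the RefSeq annotation of GRCh38.p14, without strand, and MFSD3 is given under its current symbol, SLC33A2. KCNK9 and PEG13, of the list for the inner edge, lie outside the segment. The segment, the gene lists, the stretches and the alternatives were chosen with earlier results of these data known. Named pairs are the 10 largest decreases and up to 5 largest increases past the threshold with no overlap of libraries. Named bins are the 3 highest and 3 lowest in control, and named genes are up to 4 per list by size of change, plus those in a named pair or bin. Other bins and genes were named after their values were seen. Whether the library numbers pair the libraries is not given in the labels. Deviations from the group means had a correlation of 0.02 over the 89239 pairs, which with only 2 numbers cannot decide it.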

Additional observations from a re-analysis of the deposited data

How the results depend on the processing

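Among the counts and medians of the segment and the 13 named pairs, none changed direction under any setting run. Single bins did. With the abundance trend removed, the PTK2 bin chr8:141000001-141050000 went from -0.24 to 0.01 (log2), and the bin of ZNF250 from -0.08 to 0.05 (log2). Leaving out 1 library at a time gave 98 to 211 lower pairs in the segment, with medians of -0.41 to -0.31 (log2). Within a bin it gave 65 to 71 lower bins and medians of -0.50 to -0.39 (log2). Between bins it gave 33 to 140 lower pairs, of which 24 to 78 at 50 to 150 kb (medians -0.34 to -0.23, log2), 3 to 33 at 200 to 450 kb (medians -0.42 to -0.33, log2) and 6 to 29 at 500 kb or more (medians -0.61 to -0.45, log2). With the abundance trend removed, the median was -0.13 within a bin, -0.32 at 50 to 150 kb and -0.58 at 500 kb or more (log2), and in the authors' deposited table it was -0.13, -0.32 and -0.57 (log2). TMM within distance classes gave medians of -0.32 at 50 to 150 kb and -0.38 at 500 kb or more (log2). It called 10 lower pairs at 200 to 450 kb and 15 at 500 kb or more. All pairs beyond 150 kb were scaled together in that setting, and the cause of these shifts was not tested. DESeq2 called 160 lower pairs and 0 higher in all, and 17 lower at 200 to 450 kb; the cause was not tested. At a threshold of 0.01, 66 pairs between bins were lower, of which 42 at 50 to 150 kb, 10 at 200 to 450 kb and 14 at 500 kb or more. With library number as a replicate block, 197 pairs were lower and no call of a named pair changed. Whether the numbers pair the libraries could not be told. Of the 13 named pairs, 2 kept their call in all 10 other settings. Shorter extents of the segment gave 47.6% of pairs lower in the last 4 Mb and 49.3% in the last 3 Mb. Each lone library in a fit with 1 left out is assumed to vary like the other group. Listed counts cover the more abundant pairs only, distant pairs rest on few contacts per library, and 2 libraries per group limit every error given.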
